A study of Mus musculus with 5 samples.

Results

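The 9 genes described here encode the transcription factors that specify macrophages and, among them, the Kupffer cells of the liver: Nr1h3, Nr1h2, Rxra, Spic, Maf, Spi1, Irf8, Zeb2 and Runx1. They were taken by symbol from a count table of 46983 genes, in which each symbol matched 1 row, and all 9 passed the filter on low counts that left 16436 genes for testing. Poly-A RNA of mouse liver Kupffer cells was sequenced in 5 libraries, 3 from ID3+/- cells (heterozygous, replicates 1, 2 and 3) and 2 from ID3-/- cells (knockout, replicates 2 and 3). Both groups therefore carry at least 1 mutant Id3 allele, and no wild-type cells were analysed here. The strain, sex and age of the mice, the kind of Id3 allele, any sorting of the cells and any pooling of animals were not stated in the labels, and nothing says that replicates came from separate animals. The names of all 5 count columns end in 3w, a tag whose meaning is not explained and that could be an age. The p-values thus measure only the spread between these libraries, which may be technical.

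Macrophage identity is built in layers. PU.1, the product of Spi1, opens macrophage enhancers together with partners such as IRF8 and RUNX1, and tissue factors then act on that landscape. In Kupffer cells the best known of these is the liver X receptor LXR alpha (Nr1h3), a nuclear receptor for oxysterols that binds DNA as a heterodimer with a retinoid X receptor (Rxra), and ZEB2, SPI-C and c-MAF are also known from resident macrophages. Id3, the gene removed here, encodes an inhibitor that has no DNA-binding domain and keeps E proteins off the E-box motif CANNTG. The comparison of knockout with heterozygous cells asked which of these factors differed in transcript level once Id3 was lost.

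Each library held 74823374 to 80944135 counts assigned to genes, and the 9 factors together took 0.301% to 0.324% of them in heterozygous libraries, against 0.361% to 0.371% in knockout libraries. Id3 itself was at 221 to 256 counts per 1000000 assigned counts (CPM) in heterozygous libraries, against 1.01 and 1.42 CPM in knockout libraries, so each library matched its label. None of the 10 Kupffer cell markers (Clec4f, Vsig4, Timd4 and others) was at 0 in any library, and their sum was 39700 to 40600 CPM in heterozygous cells, against 42100 to 44200 CPM in knockout libraries. The single markers went both ways, with Marco and Cd207 called higher, C6 called lower and 7 not called. Clec4f, Vsig4 and Timd4 were lower in both knockout libraries than in each heterozygous one without passing (edgeR adjusted p = 0.153, 0.0637 and 0.071). Markers of other cell types differed between the groups. The sum of 18 hepatocyte markers was 26300 to 32500 CPM in the heterozygous libraries, 13300 CPM in knockout replicate 3 and 5570 CPM in knockout replicate 2, and 15 of the 18 were lower in the knockout. The sum of 12 neutrophil markers was 159 to 188 CPM in the heterozygous libraries, 299 CPM in knockout replicate 3 and 589 CPM in knockout replicate 2 (6 of 9 tested were higher), with Mpo at 0 in 3 libraries and at most 0.214 CPM in the others, and Elane at most 0.0802 CPM. Most of this sum was Mmp9 and Csf3r, while the granule genes Ngp, Ltf and Camp were at 76.4, 39.5 and 17.2 CPM in knockout replicate 2 and at 0.475, 0 and 0.0528 CPM in knockout replicate 3. The sum of 12 monocyte markers was 1800 to 2050 and 2220 to 2340 CPM (3 of 11 tested were higher and 1 lower, and Vcan was at 3 counts or fewer in each library), most of it from Itgal and Treml4. Sums for dendritic cells, T and NK cells and platelets also lay above the heterozygous range in both knockout libraries, and that for sinusoidal endothelium below it (1200 and 1230 CPM against 1270 to 1570 CPM, 3 of 12 markers lower). In such bulk samples, fewer cells of a type and less RNA per cell cannot be told apart.

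The factors spanned a wide range of abundance. Per transcript length, in transcripts per 1000000 (TPM) computed from the counts and the summed exon length of each gene, Nr1h3 ranked first in the heterozygous libraries at 889 ± 39.2 (SD, n = 3), followed by Spi1 at 719 ± 65.2 and Rxra at 406 ± 3.94. Irf8 (151 ± 2.24 TPM), Nr1h2 (106 ± 1.15 TPM) and Spic (72.1 ± 10.8 TPM) formed a middle group, and Maf was at 21.2 ± 3.93 TPM. Runx1 (3.54 ± 0.408 TPM) and Zeb2 (2.65 ± 0.655 TPM) were the least abundant. In heterozygous cells the ranges of neighbours in this order did not overlap, but for Runx1 and Zeb2 the gap was only that between 3.14 and 3.13 TPM. In the knockout the order held except at its top: Spi1 was at 1091 and 945 TPM and Nr1h3 at 821 and 997 TPM in replicates 2 and 3, so Spi1 ranked first in replicate 2 and second in replicate 3. Taking the longest transcript of each gene as its length left every rank the same.

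**Figure D1:**
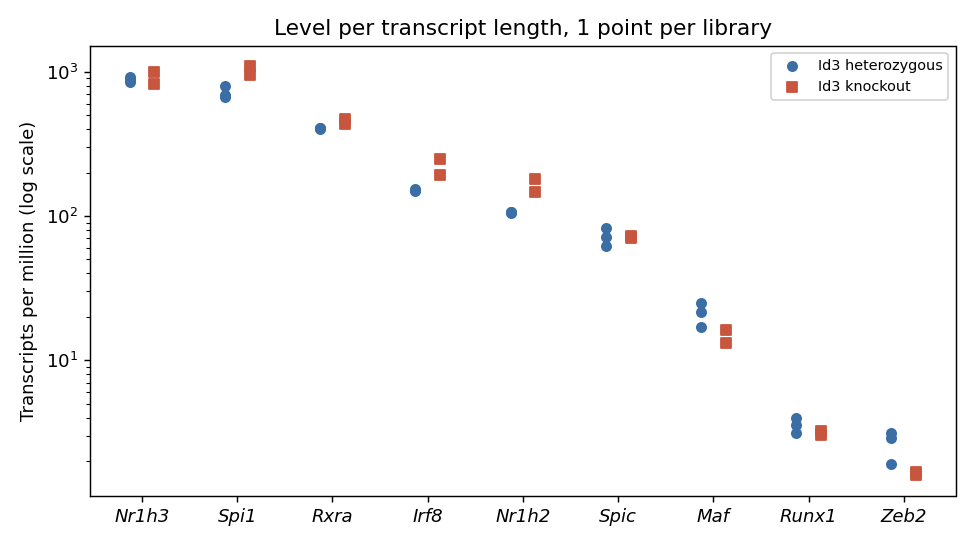
Level of the 9 factors in TPM on a log axis, 1 point per library, with heterozygous libraries as circles and knockout libraries as squares. Nr1h3 and Spi1 lie near the top of the range, and Runx1 and Zeb2 lie under 4 TPM in each library.

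The nuclear receptors split. On the scale of TMM-normalised CPM used from here on, Nr1h3 was at 811, 777 and 905 CPM in heterozygous replicates 1 to 3 and at 755 and 906 CPM in knockout replicates 2 and 3. The knockout values lie on both sides of the heterozygous ones. The log2 fold change (knockout minus heterozygous) was -0.00011 ± 0.12 (SE, n = 3 and 2, edgeR adjusted p = 0.999), and its 95% interval ran from -0.28 to 0.28. Nr1h2, which encodes LXR beta, the more widely expressed of the LXR proteins, was at 130, 130 and 137 CPM in heterozygous cells, against 221 and 178 CPM in knockout libraries. Both knockout libraries lay above all heterozygous ones, whose own spread was small. Nr1h2 rose 1.51-fold, a log2 fold change of 0.60 ± 0.11 with a 95% interval of 0.32 to 0.87 (edgeR adjusted p = 0.0231). Rxra, the shared heterodimer partner, was at 809, 797 and 863 CPM in heterozygous cells, against 945 and 861 CPM in knockout libraries, so that knockout replicate 3 fell just inside the heterozygous range. Its log2 fold change of 0.13 ± 0.09 (95% interval -0.07 to 0.34, edgeR adjusted p = 0.335) did not pass the test.

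The ratio of Nr1h2 to Nr1h3 counts needs no scaling between libraries. It was 0.161, 0.167 and 0.151 in heterozygous libraries, against 0.293 and 0.197 in knockout libraries. Both knockout ratios were the higher ones, with that of replicate 2 well above that of replicate 3. On the log2 scale the difference was 0.59 (exact two-sided permutation test, p = 0.1, the smallest that 10 assignments of the labels allow), and it was 0.302 without knockout replicate 2. The Nr1h2 call was lost without heterozygous replicate 1 (edgeR adjusted p = 0.0825), heterozygous replicate 2 (0.0875) or knockout replicate 2 (0.0759), while its log2 fold change in the 5 fits that left out 1 library stayed between 0.43 and 0.75.

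Among the ETS-class factors, Spi1 was at 679, 656 and 830 CPM in heterozygous cells, against 1075 and 921 CPM in knockout libraries. The groups did not overlap, but heterozygous replicate 3 came close to knockout replicate 3. Its log2 fold change of 0.47 ± 0.13 (95% interval 0.15 to 0.79) did not pass at an edgeR adjusted p of 0.0604. It passed with library-size scaling (0.0369), with upper-quartile scaling (0.0433), with limma-voom (0.0439), with DESeq2 (0.0062), with a filter of 1 CPM in 2 samples (0.0316) and without heterozygous replicate 3 (0.0319). Spic, which encodes a PU.1 relative known for haem-recycling macrophages, was at 99.7, 116 and 91.8 CPM in heterozygous cells, against 99.6 and 102 CPM in knockout libraries. The knockout values lie inside the heterozygous range, with a log2 fold change of -0.03 ± 0.12 (95% interval -0.32 to 0.27, edgeR adjusted p = 0.914). The ratio of Spic to Spi1 counts was 0.147, 0.177 and 0.1106 in heterozygous libraries, against 0.0927 and 0.1105 in knockout libraries, a log2 difference of -0.49 (exact two-sided permutation test, p = 0.2), in which heterozygous replicate 3 and knockout replicate 3 nearly coincide. Such a ratio does not remove a dependence on base composition, and GC content was 41.8% for Spic and 58.9% for Spi1. With the length and GC offsets described further on, Spic was at 0.52 and Spi1 at 0.24, the opposite order.

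Irf8, which encodes an interferon regulatory factor that pairs with PU.1 on composite sites, was at 386, 381 and 419 CPM in heterozygous cells, against 639 and 494 CPM in knockout libraries. Both knockout libraries were above the heterozygous range, replicate 2 by more than replicate 3. Irf8 rose 1.43-fold, with a log2 fold change of 0.52 ± 0.13 and a 95% interval of 0.21 to 0.83 (edgeR adjusted p = 0.0405). The Irf8 call did not hold without heterozygous replicate 1 (adjusted p = 0.13), heterozygous replicate 2 (0.136), heterozygous replicate 3 (0.0587) or knockout replicate 2 (0.131), with log2 fold changes of 0.50, 0.50, 0.56 and 0.32. GENCODE places the gene model Gm20388 over Irf8 on the same strand. That model had 0 counts in each library, and how reads that lie in both models were counted is not given.

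Nr1h2 and Irf8 were the only factors that passed, and their upstream sequences are shown beside that of Nr1h3 because E proteins, the partners of Id3, bind E-boxes. The 250 bases before each start site come from RefSeq (GRCm38.p6) and are written 5′ to 3′ on the gene's strand, with each CANNTG in capitals. Irf8 has 2 annotated starts.
Nr1h2 (chr7:44553966-44554215, minus strand): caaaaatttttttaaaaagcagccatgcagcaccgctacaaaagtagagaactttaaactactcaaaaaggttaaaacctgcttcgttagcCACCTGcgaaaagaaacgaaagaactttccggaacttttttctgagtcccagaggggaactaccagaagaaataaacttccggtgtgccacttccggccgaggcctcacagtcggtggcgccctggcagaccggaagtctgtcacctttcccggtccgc
Irf8, first start (chr8:120736108-120736357, plus strand): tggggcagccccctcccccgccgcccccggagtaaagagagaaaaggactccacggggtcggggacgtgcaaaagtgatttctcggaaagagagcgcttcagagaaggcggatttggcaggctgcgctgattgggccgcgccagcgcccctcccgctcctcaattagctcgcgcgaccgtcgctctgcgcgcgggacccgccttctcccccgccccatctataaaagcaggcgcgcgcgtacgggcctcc
Irf8, second start (chr8:120738389-120738638, plus strand): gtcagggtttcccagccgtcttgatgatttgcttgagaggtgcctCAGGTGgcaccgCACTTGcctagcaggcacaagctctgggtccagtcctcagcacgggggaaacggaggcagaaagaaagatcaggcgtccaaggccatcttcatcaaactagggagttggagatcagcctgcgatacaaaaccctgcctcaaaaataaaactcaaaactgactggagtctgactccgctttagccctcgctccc
Nr1h3, first start (chr2:91195117-91195366, minus strand): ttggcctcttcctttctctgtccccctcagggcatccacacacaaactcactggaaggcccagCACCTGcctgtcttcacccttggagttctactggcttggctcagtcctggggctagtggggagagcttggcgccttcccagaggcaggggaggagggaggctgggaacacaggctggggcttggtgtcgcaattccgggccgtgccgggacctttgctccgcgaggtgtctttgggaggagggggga
CANNTG reads the same on both strands, and CAGGTG, searched on both strands (CACCTG on the other), is one form of it. Nr1h2 and the first start of Nr1h3 each hold 1 E-box, in both cases CACCTG, while the second start of Irf8 holds 2 and its first start holds 0. A second annotated start of Nr1h3, not shown, also holds 0. Starts were listed for 7 of the 9 factors, all but Maf and Spi1. Of their 14 windows, 5 held CANNTG, against 66.2% of all 32851 windows of the same length. These 5 windows belonged to 5 of the 7 factors. Windows from several starts of a gene can overlap, as for Nr1h3 and Zeb2, so they are not separate observations. A share by gene was not computed over all genes. CAGGTG stood in 4 of the 14 windows and in 17.2% of all windows.

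Maf, Zeb2 and Runx1 pointed the other way without passing the test. Maf, which encodes c-MAF, a basic leucine zipper factor that restrains macrophage self-renewal, was at 74.1, 65.1 and 54.3 CPM in heterozygous cells, against 39.6 and 48.2 CPM in knockout libraries. The groups did not overlap, yet the heterozygous libraries themselves spread widely. Its log2 fold change was -0.55 ± 0.17 (95% interval -0.96 to -0.15, edgeR adjusted p = 0.0697). Zeb2, a zinc-finger repressor that binds E-box sequences and is needed to keep Kupffer cell identity, was at 21.1, 22.7 and 14.7 CPM in heterozygous cells, against 12.3 and 11.5 CPM in knockout libraries. Heterozygous replicate 3 sat nearer to the knockout libraries than to the other heterozygous ones. The log2 fold change of -0.71 ± 0.22 (95% interval -1.24 to -0.19) had an edgeR adjusted p of 0.0717, and without heterozygous replicate 3 both Zeb2 (-0.88, adjusted p = 0.0293) and Maf (-0.66, adjusted p = 0.0439) passed. Both also passed with DESeq2 and with the filter of 1 CPM. Zeb2os, an antisense gene across the Zeb2 locus, had 376, 359 and 406 counts in heterozygous libraries, against 458 and 350 counts in knockout libraries (log2 fold change 0.11 ± 0.24, edgeR adjusted p = 0.799). The strand setting of the counting is not given, so reads of Zeb2 and Zeb2os cannot be told apart where they overlap. Runx1, a Runt-domain factor of blood development, was at 17.2, 15.5 and 14.6 CPM in heterozygous cells, against 13.3 and 14.1 CPM in knockout libraries, a log2 fold change of -0.20 ± 0.15 (95% interval -0.56 to 0.15, edgeR adjusted p = 0.384).

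**Figure D2:**
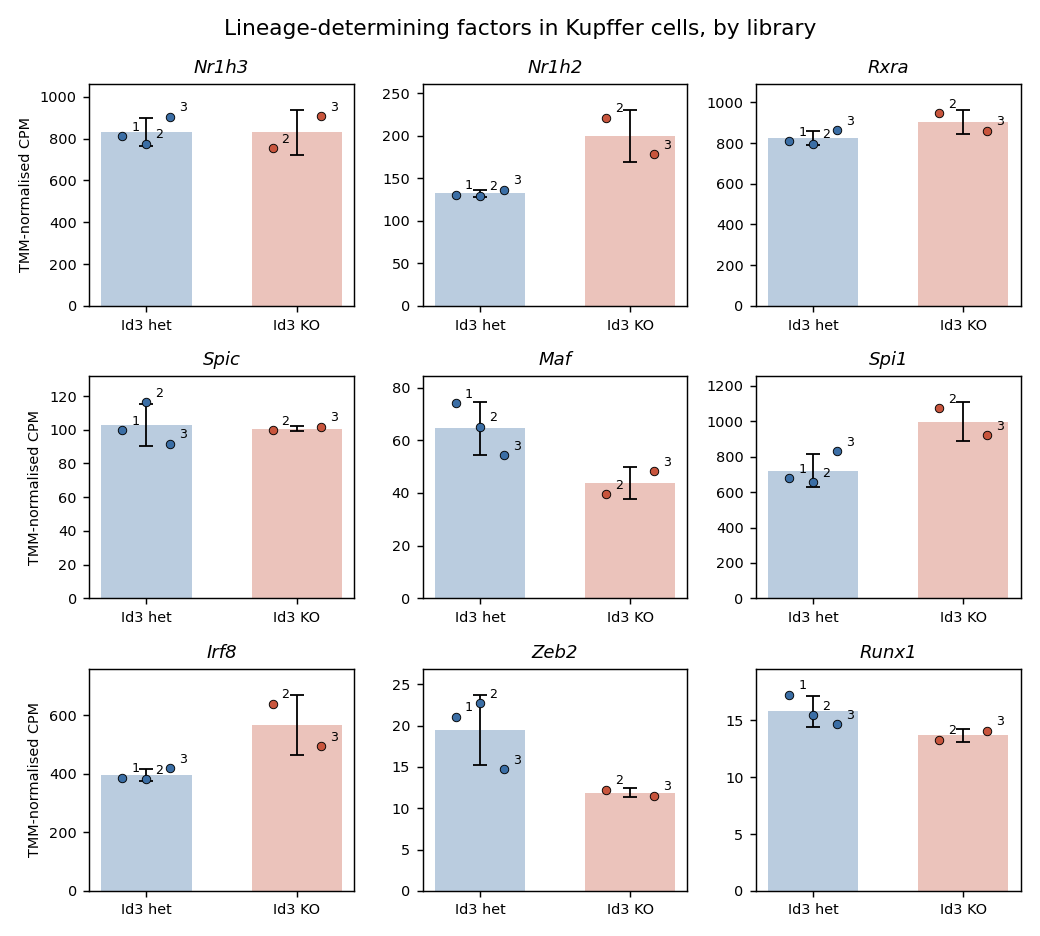
TMM-normalised CPM of each factor, with 1 point per library numbered by replicate, bars at the group mean and whiskers of 1 SD (n = 3 heterozygous, n = 2 knockout). Nr1h2, Irf8 and Spi1 lie higher in both knockout libraries, Maf, Zeb2 and Runx1 lie lower, and Nr1h3, Rxra and Spic overlap between the groups.

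Counted together, 2 of the 9 factors (22.2%) were higher, 0 lower and 7 not called. Over all genes tested, 16.4% passed (6.41% higher and 10.0% lower), so the share among the factors was near the background. The called genes split into 1054 higher and 1644 lower, a split that became 1443 and 1499 with upper-quartile scaling and 1204 and 900 with the length and GC offsets described further on. At an unadjusted edgeR p under 0.05 there were 5 of 9, against 33.5% of all genes. The groups did not overlap for 6 of the 9, 3 higher and 3 lower, where 51.5% of all genes did not overlap (24.6% higher and 26.9% lower). These overlaps are on TMM-normalised CPM: on the TPM scale the groups overlapped for Runx1 and did not overlap for Rxra, whose knockout values were then the higher ones. The median log2 fold change of the factors was -0.00011, and that of all genes tested was -0.02. The factors had a biological coefficient of variation of 0.0911 to 0.184, against a median of 0.239 over all genes tested. That median covers genes of all levels, and no comparison matched by level was made.

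In 5 of the 6 factors whose groups did not overlap, all but Zeb2, knockout replicate 2 lay farther from the heterozygous mean than knockout replicate 3. The share of all genes with that order was not computed, so it is not read as a trait of the factors. Knockout replicate 2 had the lower hepatocyte and the higher neutrophil marker sum, as given above, and a link was not tested. With the log2 hepatocyte marker sum as a covariate, edgeR called 0 of the 9 factors and 0 at an unadjusted p under 0.05, and 0 of the 16436 genes (1940 unadjusted). In that fit, Nr1h2 was at 0.15, Irf8 at -0.03, Spi1 at 0.06, Maf at -0.10 and Zeb2 at -0.64. Since the marker sum moves with the genotype in these 5 libraries, their parts can hardly be told apart in that fit. The part of neutrophil and monocyte RNA in the values for Spi1 and Irf8, which those cells also express, was not tested.

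The direction of several factors went with base composition. The 4 factors with the lowest GC content of their longest transcript, Zeb2 (40.6%), Spic (41.8%), Runx1 (46.4%) and Maf (47.4%), had the 4 lowest log2 fold changes, and Nr1h2, with the highest GC content (60.6%), had the highest. Irf8 (51.7%) did not follow this order: its log2 fold change was above those of Nr1h3 (56.8%), Rxra (57%) and Spi1 (58.9%). Offsets for exon length and GC content moved the values of most factors. They were fitted on the more abundant genes, to the deviation of each library from the mean of all libraries. A genotype effect that follows length or GC content is thus removed with them. The values with offsets are therefore an alternative and not a corrected result. Spic went from -0.03 to 0.52 and passed (edgeR adjusted p = 0.0261), and it also passed with offsets for the longest transcript and GC content (0.46, adjusted p = 0.0375) and for GC content alone (0.57, adjusted p = 0.0204). Zeb2 went to 0.11 (adjusted p = 0.738), Maf to -0.20 (adjusted p = 0.413) and Runx1 to 0.25 (adjusted p = 0.299). Irf8 stayed higher at 0.61 (adjusted p = 0.0291) and passed in all 3 versions of the offsets. Nr1h2 went to 0.36 (adjusted p = 0.0486), and its call was lost with longest-transcript length (0.31, adjusted p = 0.0898) and with GC content alone (0.36, adjusted p = 0.0616). Spi1 went to 0.24 (adjusted p = 0.189), Nr1h3 to -0.20 (adjusted p = 0.267) and Rxra to 0.03 (adjusted p = 0.832). Irf8 was thus the only factor called with and without each of the 3 offsets.

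**Figure D3:**
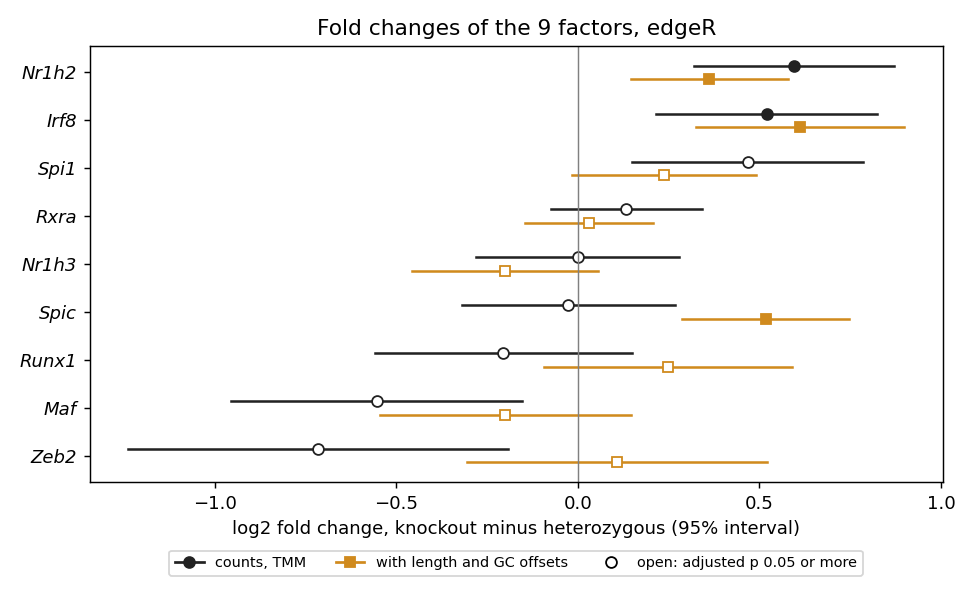
Log2 fold change of each factor, knockout minus heterozygous, with its 95% interval, for the counts with TMM scaling (circles) and with length and GC offsets (squares). Filled symbols passed at an edgeR adjusted p under 0.05; Nr1h2 and Irf8 are filled in both, Spic with offsets only, and Zeb2 moves from -0.71 to 0.11.

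By position, 4 of the 9 factors lie on mouse chromosome 2 (Nr1h3, Spi1, Rxra and Zeb2), while Nr1h2 (ENSMUSG00000060601.12) lies on chromosome 7, Irf8 (ENSMUSG00000041515.9) and Maf on chromosome 8, Spic on chromosome 10 and Runx1 on chromosome 16. Spi1 and Nr1h3 are near neighbours there in GENCODE M21, with Mybpc3 and Madd between them. Madd, which encodes a MAP-kinase activating protein, was at 94.5 ± 8.75 CPM (SD, n = 3) in heterozygous libraries, against 94.6 ± 3.47 CPM (SD, n = 2) in the knockout cells, and Mybpc3, a muscle gene, was at 0.364 and 0.961 CPM. Neither passed (edgeR adjusted p = 0.997 and 0.163).

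By likeness of pattern, the non-member gene of at least 5 CPM whose centred log2 CPM came closest to that of Nr1h2 over the 5 libraries was Ip6k1, an inositol phosphate kinase gene, at a root mean square difference of 0.0127. For Irf8 it was Lmbr1l (0.0144), for Spi1 it was Arhgdib (0.0221), and for Rxra it was Trpc4ap (0.0074). Spic was nearest to Slc27a4 (0.0255), Maf to Lsm14a (0.0331), Zeb2 to Haus2 (0.0268) and Runx1 to Sgpp1 (0.0225). These are the closest of 9049 candidate genes and rest on 5 libraries, so they are given as a description.

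The relatives, inputs and targets of the factors were read from the same fit. Of 170 such genes tested, 24 were higher and 28 lower, or 30.6% called against 16.4% of all genes, with a median log2 fold change of -0.08 against -0.02. The lists were chosen with earlier results of these data known and were not matched to all genes by level. These shares are therefore a description only. Of the 32 called genes named in what follows, 0 changed sign and 9 passed in all 5 fits that left out 1 library: Ets2, Etv5, Bhlhe40, Klf2, Adam10, Scd1, Cybb, Cd163 and Mrc1. Without heterozygous replicate 1, heterozygous replicate 2, knockout replicate 2 or knockout replicate 3, respectively 22, 22, 14 and 7 of them lost the call. With length and GC offsets 7 lost it: Tbl1xr1, Tfec, Adam17, Bmpr1a, Msr1, Vcam1 and C1qb.

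Of 23 RXR partners and LXR coregulators, 0 were higher and 6 lower, with a median log2 fold change of -0.50. With length and GC offsets the count was 1 higher and 4 lower. Tbl1xr1 and Tbl1x, subunits of the NCoR corepressor complex, changed by -1.24 ± 0.17 and -1.09 ± 0.21 (edgeR adjusted p = 0.0122 and 0.0227), and Tbl1xr1 was at -0.56 and not called with length and GC offsets. Ppara and Nr1h4, nuclear receptors for fatty acids and bile acids that hepatocytes express, changed by -2.25 ± 0.33 and -2.18 ± 0.37, alongside the lower hepatocyte marker sums of both knockout libraries. With the hepatocyte covariate they were at -1.07 and -0.69 and not called (edgeR adjusted p = 0.486 and 0.58). No gene passed in that fit, so the lost calls say nothing particular about them. Rxrb, a second retinoid X receptor, was at 123 ± 8.06 CPM in heterozygous cells, against 158 ± 25.5 CPM after Id3 loss, and did not pass (0.37 ± 0.13, edgeR adjusted p = 0.0947). It passed with DESeq2 (0.40, adjusted p = 0.0281), with the filter of 1 CPM (adjusted p = 0.0496) and without knockout replicate 3 (0.54).

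Relatives of PU.1 moved both ways. Of 15 other ETS genes, 2 were higher and 2 lower, with a median log2 fold change of -0.37. Ets2 and Etv5, which growth-factor signals through ERK induce or activate, rose from 123 ± 1.79 to 248 ± 35.7 CPM and from 123 ± 9.20 to 235 ± 14.9 CPM (1.02 ± 0.11 and 0.93 ± 0.10, edgeR adjusted p = 0.0075 and 0.0077). Elf1 changed by -1.26 ± 0.20 and the endothelial factor Erg by -2.08 ± 0.43, the latter alongside a lower endothelial marker sum, whose part was not tested. Ets1 was at 83.3 ± 11.9 and 43.6 ± 17.2 CPM, short of the threshold (edgeR adjusted p = 0.0578), but passed with DESeq2, with limma-voom, with the filter of 1 CPM and without knockout replicate 2 (-1.41).

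Among the other IRF genes, 0 of 8 passed by edgeR (1 at an unadjusted p under 0.05, and 1 each by DESeq2 and limma-voom), with a median log2 fold change of 0.15, so Irf8 stood alone among the IRF genes in passing, although that difference was not tested. Irf7 was at 751 ± 141 and 955 ± 451 CPM, a spread set by the knockout libraries, and its log2 fold change of 0.35 ± 0.30 turned to -0.23 without knockout replicate 3. Of 8 tested MAF and CNC-BACH genes, 0 passed by edgeR (2 unadjusted, 2 by DESeq2 and 1 by limma-voom), with a median of 0.17. Of 6 tested RUNX family genes and ZEB cofactors, 0 were higher and 1 lower, with a median of -0.23. It was Ctbp2, a corepressor that ZEB proteins recruit, which went from 17.7 ± 1.45 to 9.96 ± 0.0359 CPM (-0.83 ± 0.15, edgeR adjusted p = 0.0198). Cbfb, the obligate partner of RUNX factors, was at 55.5 ± 6.68 and 40.0 ± 4.81 CPM and did not reach the threshold by edgeR (adjusted p = 0.0729), but passed with DESeq2 (-0.45, adjusted p = 0.0201).

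Other transcription factors known from Kupffer cells gave 4 higher and 2 lower of 14, with a median log2 fold change of 0.10. Klf2, a zinc-finger factor that limits inflammatory activation, rose from 367 ± 11.5 to 700 ± 104 CPM (0.93 ± 0.11, edgeR adjusted p = 0.0091), and Bhlhe40, a basic helix-loop-helix repressor, rose from 32.7 ± 2.93 to 68.7 ± 3.67 CPM (1.07 ± 0.12, edgeR adjusted p = 0.0077). Cebpb was also called higher, and Tfec lower (-0.68 ± 0.11, but -0.02 with length and GC offsets).

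Signals that act upstream of these factors in Kupffer cells come through Notch and through TGF-beta and BMP receptors to SMAD proteins. Of 20 Notch pathway genes, 1 was higher and 3 lower, with a median log2 fold change of -0.26. The proteases Adam10 and Adam17, which cleave Notch receptors and other surface proteins, changed by -1.92 ± 0.24 and -0.96 ± 0.19, from 81.0 ± 21.7 to 21.4 ± 1.80 CPM and from 162 ± 35.1 to 83.1 ± 8.57 CPM. With length and GC offsets Adam17 was at -0.49 and not called. Ncstn, a subunit of gamma-secretase, rose by 0.40 ± 0.08 and the coactivator Maml2 changed by -2.28 ± 0.48. Notch2 was at 124 ± 18.1 and 101 ± 4.14 CPM, short of the threshold (edgeR adjusted p = 0.197), but passed without heterozygous replicate 3 (-0.41). Of 16 SMAD pathway genes, 3 were higher and 4 lower, with a median of -0.295. The inhibitory SMADs split, with Smad6 higher (0.68 ± 0.11) and Smad7 lower (-0.75 ± 0.15). The receptors split as well, with Tgfbr2 higher (0.42 ± 0.08) and Bmpr1a lower (-1.41 ± 0.31, but -0.75 and not called with length and GC offsets).

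Target genes of the factors were read from 4 lists. Of 21 LXR targets, 3 were higher and 3 lower, with a median log2 fold change of 0.07. The phospholipid transfer protein gene Pltp was among the higher and the desaturase gene Scd1 among the lower. Both knockout libraries also had lower hepatocyte marker sums. The part of hepatocyte RNA in these targets cannot be told apart from that of genotype here. Of 20 tested PU.1 and IRF8 targets, 5 were higher and 3 lower, with a median of 0.18. Ncf4 and Cybb encode parts of the same phagocyte NADPH oxidase, and they moved apart: Ncf4 rose from 119 ± 5.88 to 186 ± 0.999 CPM (0.64 ± 0.09, edgeR adjusted p = 0.0112), whereas Cybb went from 176 ± 40.5 to 55.1 ± 4.80 CPM (-1.68 ± 0.21, edgeR adjusted p = 0.0098). Csf2ra, a subunit of the GM-CSF receptor, rose by 0.67 ± 0.10, and the scavenger receptor gene Msr1 changed by -0.78 ± 0.14 (-0.03 with length and GC offsets). Csf1r did not pass, but passed without knockout replicate 3 (0.38).

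Of 8 SPI-C and haem-responsive genes, 4 were higher and 1 lower, with a median log2 fold change of 0.46. With DESeq2 and with limma-voom 8 of the 8 passed, and with length and GC offsets 4 were higher and 0 lower. The gene that was lower, Vcam1, an adhesion molecule gene known to depend on SPI-C in spleen macrophages, went from 1342 ± 259 to 608 ± 18.6 CPM (-1.14 ± 0.17, edgeR adjusted p = 0.0147), and was at -0.39 and not called with length and GC offsets. The iron exporter gene Slc40a1 was at 6000 ± 296 and 7340 ± 426 CPM, short of the threshold (edgeR adjusted p = 0.0564), but passed with DESeq2, with limma-voom, with upper-quartile and library-size scaling, with the filter of 1 CPM, without knockout replicate 3 (0.36) and with each of the 3 offsets (0.88 to 0.95). Of 11 c-MAF targets, 2 were higher and 3 lower, with a median of 0.03, and with length and GC offsets 0 were higher and 3 lower. The lower ones were Cd163, Mrc1 and Lyve1, receptors for haemoglobin complexes, mannosylated glycans and hyaluronan. The endothelial marker sum was also lower in both knockout libraries, and its part in these values was not tested. Lyve1 went from 19.1 ± 7.37 to 4.15 ± 0.127 CPM (-2.20 ± 0.35, edgeR adjusted p = 0.0156). The complement gene C1qb rose from 7049 ± 552 to 9021 ± 60.3 CPM (0.36 ± 0.09, edgeR adjusted p = 0.0394), but was at 0.04 with length and GC offsets (adjusted p = 0.732).

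**Figure D4:**
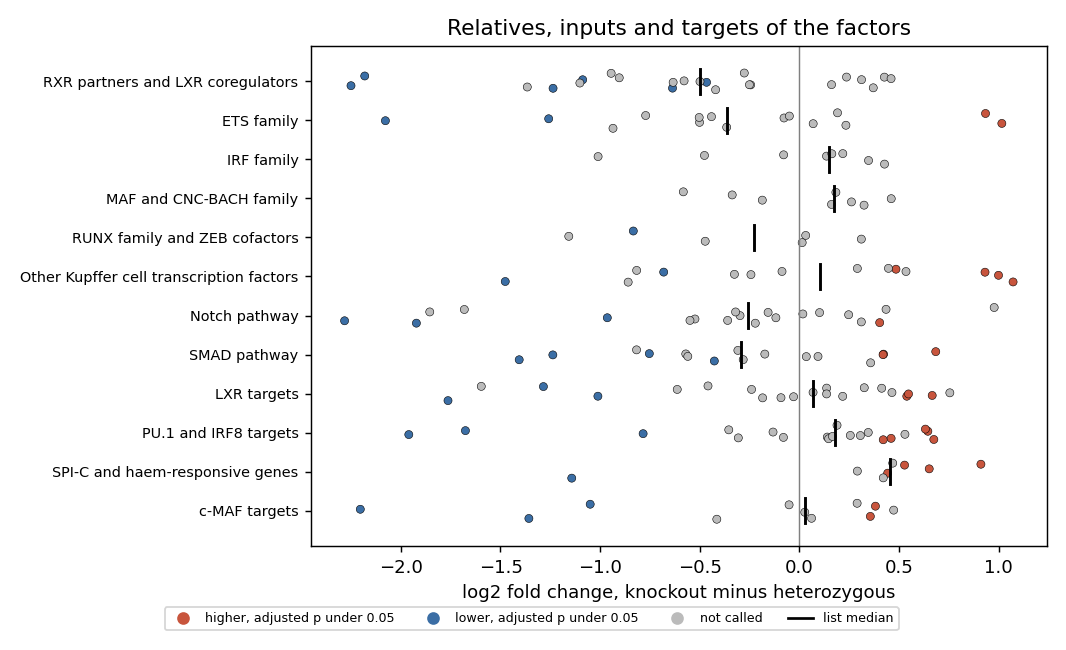
Log2 fold change, knockout minus heterozygous, of the tested genes in 12 fixed lists of relatives, inputs and targets, 1 point per gene, coloured by the edgeR call, with a bar at each list's median. Medians run from -0.50 for RXR partners and LXR coregulators to 0.46 for SPI-C and haem-responsive genes, and the genes of the IRF and MAF lists are all grey (not called).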

How the data were processed

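Kupffer cell RNA was measured in 3 heterozygous and 2 knockout libraries, grouped by their titles. The authors deposited whole-number counts of reads for each gene. The submitters' processing notes name HTSeq 0.5.4, DESeq 1.18.0, R 3.1.2 and build mm9. Per the labels' protocols, tissue was broken up mechanically over a filter and libraries came from a SMART-seq low-input kit, whose amplified cDNA went through further PCR. The sources used here do not give the aligner, annotation or strand option. Entries that name no gene, 40.0% to 48.6% of everything counted, were left out, and 32.3% to 41.0% of aligned entries had several alignments. Of 46983 gene IDs, 46488 matched GENCODE M21 (37902 with the same version), used for length, GC content and gene order.

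Knockout was compared with heterozygous by the quasi-likelihood test of edgeR 4.0.16 under R 4.3.3, with all 5 libraries, no covariate, TMM scaling and the filter of filterByExpr, and adjusted p-values (Benjamini-Hochberg) cover all 16436 genes tested, with a threshold of 0.05. The residual degrees of freedom were 3. The SE is the log2 fold change divided by the square root of F. Alternatives used DESeq2 1.42.0, limma-voom 3.58.1, other scalings and filters, a replicate block, offsets from splines over length and GC content, a hepatocyte marker covariate and each library left out. The code was tested on 3 simulated data sets. There, 35.3% of genes with a log2 change of 1 and 58.3% of those with a change of 2 were called. On average 7.6% of the calls were false. Whether these shares hold for the libraries compared here was not tested. A factor that did not pass may still differ. The factors and lists were chosen with earlier results of these data known. Genes named from a list were taken from its up to 4 called genes of smallest p and its 2 uncalled genes of highest level, and only part of them is given. The gene nearest in pattern to Nr1h3 is not reported here. Depth was 74823374 to 80944135 assigned counts a library.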

Additional observations from a re-analysis of the deposited data

How the results depend on the processing

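The limits are few libraries, a hepatocyte marker level that follows genotype, and a dependence on base composition. The 2 called factors became 5 with DESeq2 and 5 with a filter of 1 CPM in 2 samples. With DESeq2, 4581 of 16436 genes and 87 listed genes passed, against 2698 and 52 in the main fit. With the filter of 1 CPM, 3497 of 12217 genes and 71 listed genes passed, so the calls rose over all genes too. With the hepatocyte marker covariate, edgeR called 0 factors, 0 genes and 0 listed genes (0, 1940 and 32 at an unadjusted p under 0.05). Leaving out 1 library gave 0 to 4 called factors, 335 to 2540 genes and 11 to 66 listed genes, with 463, 335 and 903 genes without heterozygous replicate 1, heterozygous replicate 2 or knockout replicate 2, where 0 factors passed (edgeR; 5, 5 and 3 unadjusted). The log2 ratio difference ran from 0.302 to 0.878 for Nr1h2 to Nr1h3 and from -0.671 to -0.332 for Spic to Spi1 in these fits. The sign for Spic to Spi1 still depends on base composition, since with length and GC offsets Spic was at 0.52 and Spi1 at 0.24. The excess of lower over higher genes (1644 against 1054) became 1499 against 1443 with upper-quartile scaling and 900 against 1204 with length and GC offsets. The versions of the offsets with longest-transcript length or GC content alone were chosen after seeing the data.

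The replicate numbers come from the sample titles, which do not say what they stand for. Deviations from the group means correlated across genes at -0.0256 for number 2 and -0.0618 for number 3. With 2 knockout libraries the knockout deviations mirror each other, so these values are not separate checks. They cannot tell whether samples of the same number shared an origin. With a replicate block, edgeR called 1 gene, 0 factors (2 unadjusted) and 0 listed genes (53 unadjusted), and the ratio differences were 0.596 and -0.468.

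Signs changed as follows, and the cause was not tested. Nr1h3, near 0, was at 0.02 with RLE scaling, 0.07 with upper-quartile, 0.00 with library-size scaling, 0.01 with no filter, 0.03 with the filter of 1 CPM, 0.02 with DESeq2, 0.27 with the hepatocyte covariate, 0.07 without heterozygous replicate 3 and 0.12 without knockout replicate 2. Spic was at 0.04 with upper-quartile scaling, 0.00 with the filter of 1 CPM, 0.12 with the hepatocyte covariate and 0.08 without heterozygous replicate 2, and at 0.52, 0.46 and 0.57 with length and GC, longest-transcript length and GC, and GC offsets. In the same order Runx1 was at 0.25, 0.24 and 0.13 and Cbfb at 0.02, 0.02 and 0.08. Zeb2 was at 0.11 with either length and GC offset, and Rxra at -0.03 with GC offsets. With the hepatocyte covariate Rxra was at -0.08, Irf8 at -0.03, Rxrb at -0.08 and Csf1r at -0.47. Csf1r was at -0.08 without knockout replicate 2 and Irf7 at -0.23 without knockout replicate 3. Over the fits that left out 1 library, Nr1h3 ran from -0.13 to 0.12, Spic from -0.10 to 0.08, Irf7 from -0.23 to 0.76 and Csf1r from -0.08 to 0.38.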
